A study of Mus musculus with 9 samples.

Results

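The annexin genes *Anxa1*, *Anxa2*, *Anxa3*, *Anxa4*, *Anxa5*, *Anxa6*, *Anxa7* and *Anxa11* were followed across CD11b+ B cells, CD11b- B cells and peritoneal macrophages (PMs) of the mouse. These 8 genes were taken by name from the 12 annexin genes in an expression table of 55322 genes, and were chosen on their FPKM in these same 9 libraries, so their levels and differences are given below as a description. Where a fit over all genes called members, their number stands beside the share of all genes called, and nothing is read from it. The B cells were sorted from the bone marrow (BM) of wild-type mice 48 h after LPS, a bacterial cell wall component that mimics infection, was injected into the peritoneal cavity at 5 mg/kg. Cells bearing CD3, CD4, CD8, Gr-1, NK1.1 or TER119 had been depleted first, and B cells with and without surface CD11b, an integrin chain of myeloid cells, were then taken as separate groups. PMs were CD11b+F4/80+ cells of the peritoneal cavity of naive wild-type mice. Each group had 3 RNA-seq libraries, and all 3 groups came from wild-type animals with no transgene. Because PMs came from another tissue and had no LPS, cell type, site and treatment cannot be told apart in any comparison with PMs, and no B cells from untreated mice were analysed here.

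Annexins are cytosolic proteins that bind negatively charged phospholipids, above all phosphatidylserine, when calcium rises. They share a conserved core that makes this contact and differ in their amino-terminal tails, which bind partners such as S100 proteins. They take part in membrane repair, vesicle fusion, exocytosis and the handling of dying cells, and *Anxa1* in particular is known in myeloid cells as a glucocorticoid-induced protein whose secreted form acts on formyl peptide receptors to dampen inflammation.

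The libraries held between 18014658 and 35251215 reads on genes, with the 3 PM libraries at 18014658 to 29208721. Levels are given as FPKM, the reads of a gene divided by its exon length and scaled to the counted reads of the library. Comparisons between genes, as in the shares and orders below, thus rest on the exon length used for each gene. It was 1777 bases for *Anxa5* and 5991 for *Anxa7*. In CD11b- B cells *Anxa7* had 9305 reads against 4565 for *Anxa5*, but a lower mean FPKM. Summed over 8 B cell markers, FPKM was 62.0 to 114 in PMs, 5051 to 5660 in the CD11b+ and 6403 to 6747 in the CD11b- libraries. Summed over 10 macrophage markers it was 24466 to 61640, 115 to 315 and 40.5 to 57.7 in the same order. The B cell and PM libraries thus matched their cell type labels by these genes, which do not check the split of B cells by CD11b. CD11b+ B cells also carried RNA of 11 neutrophil markers, with sums of 215 to 1546 against 1.77 to 3.02 in CD11b- B cells and 13.8 to 30.6 in PMs, although the depletion included Gr-1, a neutrophil antigen. Sums over 7 plasma cell markers were 252 to 641 in CD11b+ and 101 to 179 in CD11b- B cells, and sums over 6 monocyte markers were 68.8 to 106 and 22.6 to 30.0. Erythroid sums over 5 genes were 27.6 to 39.1 and 1.4 to 21.2, and the T cell, NK cell and megakaryocyte sums stayed at or below 21.1 in every B cell library.

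The make-up of the annexin transcripts differed between B cells and PMs, mainly through *Anxa1*, *Anxa2* and *Anxa3*, while *Anxa6* remained abundant in all groups. *Anxa6* supplied on average 65.3% of the annexin FPKM of CD11b- and 53.0% of that of CD11b+ B cells, but 15.4% of that of PMs. *Anxa1*, *Anxa2* and *Anxa3* together supplied 65.9% for PMs, 15.9% for CD11b+ and 4.51% for CD11b- B cells. The joint share of these genes was 3.99, 3.98 and 5.57% in the 3 CD11b- libraries, 15.7, 20.8 and 11.3% in the CD11b+ libraries and 68.2, 65.9 and 63.6% in the PM libraries, and no library of a group reached the range of another. The summed annexin level averaged 445 ± 78.5 FPKM (SD, n = 3) over the PM libraries, 192 ± 48.3 over the CD11b+ libraries and 171 ± 7.92 over the CD11b- libraries. The sums of the B cell groups overlapped, with 179, 170 and 163 against 224, 215 and 136, whereas the PM sums of 358, 466 and 510 lay above all 6 B cell libraries.

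**Figure D1:**
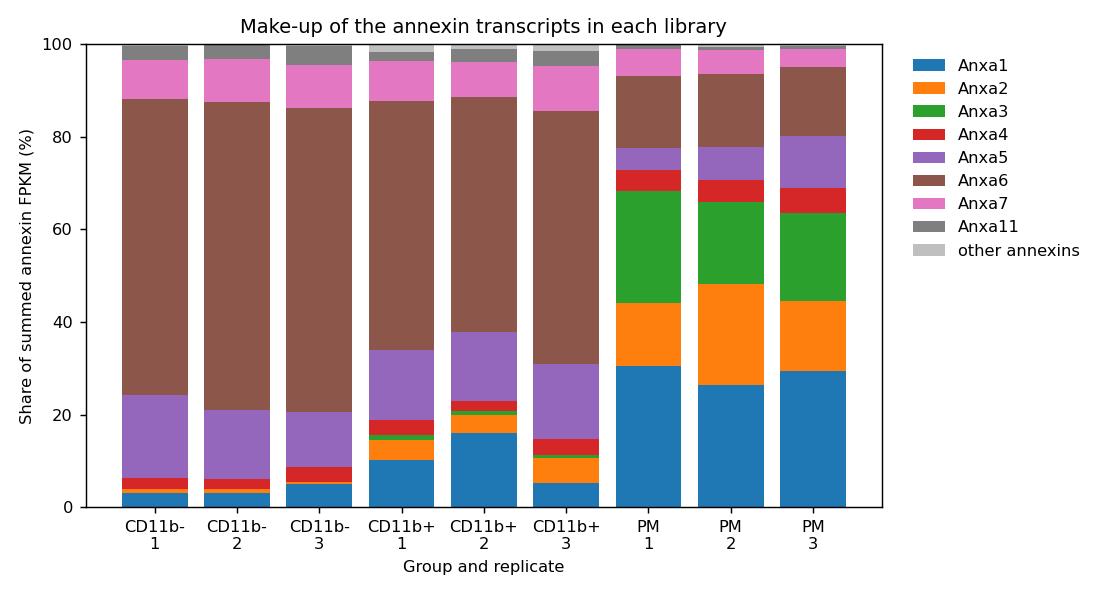
Share of each annexin (colour, %) in the summed annexin FPKM of each of the 9 libraries, with the group and replicate on the x axis. *Anxa6* fills most of every B cell bar, *Anxa1*, *Anxa2* and *Anxa3* fill 63.6 to 68.2% of each PM bar, and the CD11b+ bars lie between, at 11.3 to 20.8% for those genes.

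The start regions of 4 members are shown because they pair the genes with the largest gaps between B cells and PMs that had a sequence, *Anxa1* and *Anxa2*, with members that differed less between groups and had a single window, *Anxa5* and *Anxa11*. Each is the RefSeq sequence of GRCm38.p6 from 250 bases before to 50 bases after the start RefSeq gives. That start can differ from the outer bounds of the gene in the GRCm38 annotation used for the positions below, and the *Anxa1* window lies inside those bounds. The windows are at chr19:20390622-20390921 on the minus strand for *Anxa1*, chr9:69453433-69453732 on the plus strand for *Anxa2*, chr3:36475838-36476137 on the minus strand for *Anxa5* and chr14:25841905-25842204 on the plus strand for *Anxa11*. Capitals mark matches on either strand to any of 6 motifs. The basal promoter motifs searched were the TATA box, spelled TATAAA, then the CCAAT box, which 37.4% of windows held, and the GC box, the letters of which are GGGCGG and which binds Sp1. The factor motifs searched were TGANTCA for AP-1, the core GAGGAA for PU.1, a factor of myeloid and B cells, and TTGCNNAA for C/EBP.
Anxa1: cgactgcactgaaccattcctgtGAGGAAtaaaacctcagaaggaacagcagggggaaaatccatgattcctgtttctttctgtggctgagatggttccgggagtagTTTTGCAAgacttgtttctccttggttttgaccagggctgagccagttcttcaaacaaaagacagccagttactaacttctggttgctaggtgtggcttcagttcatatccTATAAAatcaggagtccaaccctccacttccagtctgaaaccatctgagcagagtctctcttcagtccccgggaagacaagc
Anxa2: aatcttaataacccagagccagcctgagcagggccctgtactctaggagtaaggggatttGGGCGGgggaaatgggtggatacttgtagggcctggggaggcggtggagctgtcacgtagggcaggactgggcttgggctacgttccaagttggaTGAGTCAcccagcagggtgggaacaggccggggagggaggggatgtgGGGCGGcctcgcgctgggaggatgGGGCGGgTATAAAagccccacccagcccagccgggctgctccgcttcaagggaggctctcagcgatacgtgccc
Anxa5: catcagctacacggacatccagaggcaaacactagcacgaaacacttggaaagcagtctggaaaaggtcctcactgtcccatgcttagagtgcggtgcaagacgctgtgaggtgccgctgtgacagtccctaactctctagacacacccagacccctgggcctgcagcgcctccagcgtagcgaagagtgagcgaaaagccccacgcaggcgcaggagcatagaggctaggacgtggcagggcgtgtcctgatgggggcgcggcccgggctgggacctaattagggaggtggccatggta
Anxa11: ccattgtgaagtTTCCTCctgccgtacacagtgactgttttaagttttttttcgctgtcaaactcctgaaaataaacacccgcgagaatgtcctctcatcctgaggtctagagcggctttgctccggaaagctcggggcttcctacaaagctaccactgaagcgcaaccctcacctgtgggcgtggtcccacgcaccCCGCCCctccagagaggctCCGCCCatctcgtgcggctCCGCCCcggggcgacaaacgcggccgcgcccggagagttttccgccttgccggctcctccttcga
The *Anxa1* and *Anxa2* windows each held a TATAAA, which began 32 and 17 bases before the start, and 13.6% of all 32851 windows in the same table held this motif. *Anxa1* had, in addition, a GAGGAA, found in 28.3% of windows, and a C/EBP match, found in 10.8%. *Anxa2* had an AP-1 match, found in 7.81% of windows, and 3 GC boxes, a motif found in 35.7%. *Anxa11* had 3 GC boxes, a GAGGAA match and no TATAAA, and *Anxa5* had none of the motifs searched. CpG dinucleotides numbered 3 in the *Anxa1* window, 13 in *Anxa2*, 16 in *Anxa5* and 25 in *Anxa11*, beside a median of 7 and an interquartile range of 3 to 20 over all windows. Windows were found for 6 of the 8 members, all but *Anxa3* and *Anxa6*. Both *Anxa4* and *Anxa7* had a pair of windows, with 20 and 3 CpGs for *Anxa4* and 19 and 4 for *Anxa7*. *Anxa7* held only GC boxes, and *Anxa4* a GC box in the window with 20 CpGs and a C/EBP match in the other. A match is a description of letters and not evidence of binding.

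*Anxa1*, *Anxa2* and *Anxa3* formed a graded group, lowest in CD11b- B cells, intermediate in CD11b+ B cells and highest in PMs by their means. *Anxa1* (chr19:20373428-20390944, minus strand, GRCm38) was at 5.41, 5.16 and 8.14 FPKM in the CD11b- libraries, 22.9, 34.5 and 7.08 in the CD11b+ libraries and 109, 122 and 151 in the PM libraries. CD11b+ replicate 3 fell within the CD11b- range, so the B cell groups overlapped, while every PM library was above every B cell library. The mean was 6.24 ± 1.66 for CD11b- B cells, 21.5 ± 13.8 for CD11b+ B cells and 127 ± 21.1 for PMs (SD, n = 3 each), so that CD11b+ B cells stood at 3.45 times the CD11b- mean and at 16.9% of the PM mean. In bulk RNA, fewer cells of a type and less RNA per cell cannot be told apart, here or for any gene below.

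*Anxa2* (chr9:69453620-69491795, plus strand), which pairs with S100a10 in a complex at the plasma membrane that also binds plasminogen, separated the B cell groups more evenly. The CD11b- libraries had 1.56, 1.47 and 0.828 FPKM, the CD11b+ libraries 9.77, 8.24 and 7.44, and the PM libraries 48.5, 102 and 77.3. No library of any group overlapped another group, and the spread among CD11b+ libraries was small next to the gap. The means were 1.29 ± 0.4, 8.49 ± 1.18 and 75.8 ± 26.7, a ratio of 6.6 between the B cell groups, and the CD11b+ mean was 11.2% of that of PMs.

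*Anxa3* (chr5:96793339-96845966, plus strand), an annexin abundant in neutrophils and macrophages, had the widest range. It was at 0.164, 0.134 and 0.111 FPKM in CD11b- B cells, which rested on 50 reads in all, at 2.35, 2.06 and 0.864 in CD11b+ B cells on 558 reads, and at 86.2, 82.8 and 96.5 in PMs on 21554 reads. Again no library overlapped another group. The CD11b+ mean of 1.76 ± 0.785 was 12.9 times the CD11b- mean of 0.137 ± 0.0267, yet only 1.98% of the PM mean of 88.5 ± 7.12, against 16.9% for *Anxa1* and 11.2% for *Anxa2*.

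**Figure D2:**
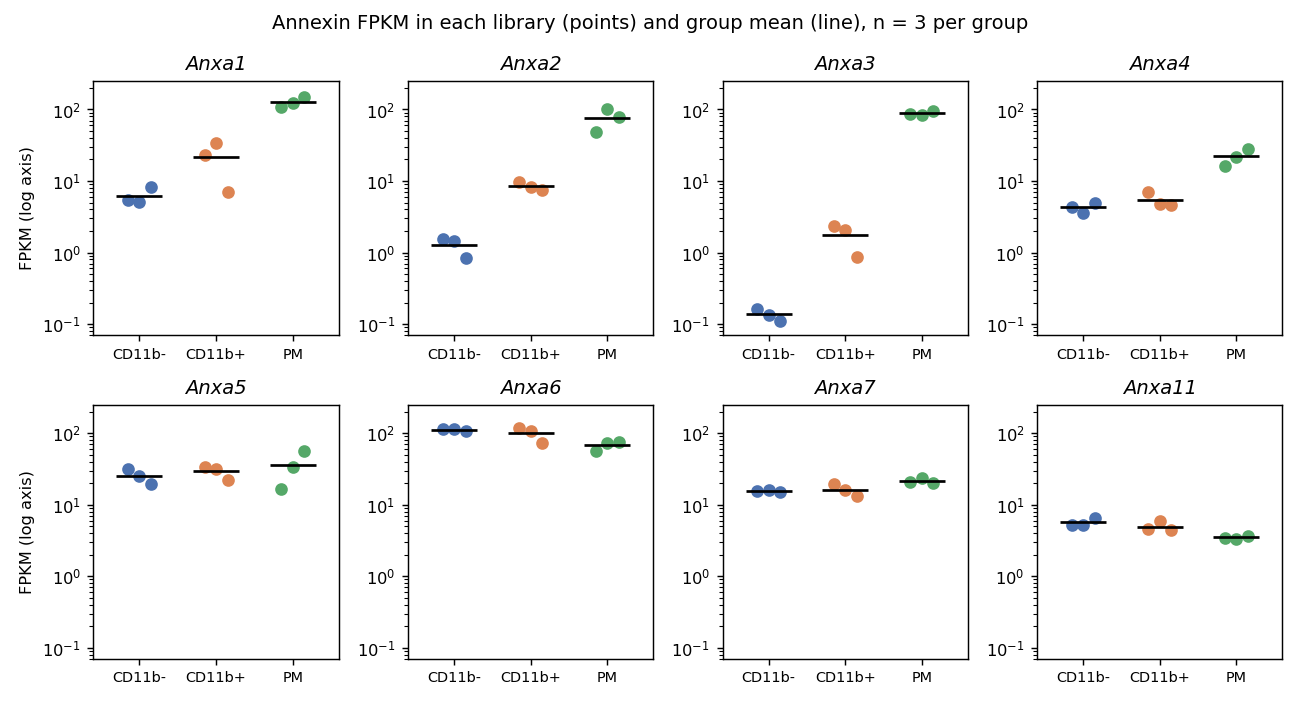
FPKM (log axis) of each of the 8 annexins in the 3 libraries of CD11b- B cells, CD11b+ B cells and PMs, with points for libraries and a line for the group mean. *Anxa1*, *Anxa2* and *Anxa3* step up from left to right with means of 6.24, 21.5 and 127, of 1.29, 8.49 and 75.8, and of 0.137, 1.76 and 88.5, whereas *Anxa5* has overlapping groups throughout.

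The other 5 members differed less. *Anxa4* (chr6:86736840-86793584, minus strand), known for binding membranes in secretory epithelia, was at 4.35, 3.58 and 4.94 FPKM in the CD11b- libraries, 7.09, 4.72 and 4.67 in the CD11b+ libraries and 16.4, 21.8 and 27.9 in the PM libraries. Its B cell groups overlapped, and all PM libraries lay above them, with a PM mean 5.13 times that of CD11b- B cells and 4.01 times that of CD11b+ B cells. *Anxa5* (chr3:36448923-36475894, minus strand), the protein used as a probe for phosphatidylserine on apoptotic cells, was at 31.8, 25.4 and 19.4, at 33.9, 31.8 and 22.2, and at 16.7, 33.8 and 57.0 in the same order. Its PM libraries spanned the range of both B cell groups, so its levels could not be ordered between groups.

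*Anxa6* (chr11:54979108-55033445, minus strand), which carries a duplicated annexin core and is linked to cholesterol and endosome traffic, was the most abundant annexin of B cells. The CD11b- libraries had 114, 113 and 107 FPKM, the CD11b+ libraries 120, 109 and 74.1 and the PM libraries 56.0, 73.3 and 75.4, so CD11b+ replicate 3 reached into the PM range. By mean level *Anxa6* stood above 99.2% of the genes in the table in CD11b- B cells and 98.7% in PMs. *Anxa7* (chr14:20455260-20480133, minus strand), also called synexin and linked to granule fusion, was at 15.4, 15.8 and 15.2, at 19.4, 16.2 and 13.1, and at 20.7, 23.8 and 20.2, with every PM library above the B cell libraries by a small margin. *Anxa11* (chr14:25842156-25886804, plus strand), which has a long tail that binds Pdcd6 and joins RNA granules to lysosomes, was at 5.16, 5.25 and 6.62, at 4.51, 5.92 and 4.44, and at 3.45, 3.32 and 3.68, lowest in PMs without overlap. The antisense gene *Anxa11os* overlaps exons of *Anxa11* and was at 0.0448 to 1.24 FPKM over the 9 libraries. Other annotated genes likewise lie over *Anxa1*, *Anxa2*, *Anxa3* and *Anxa4*, and the sources used here do not say whether reads were counted by strand, so those levels may include some reads of the overlapping genes.

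The order of the annexins within a group followed from these levels, and so depended on the exon length used for each gene. In CD11b- B cells it ran *Anxa6*, *Anxa5*, *Anxa7*, *Anxa1*, *Anxa11*, *Anxa4*, *Anxa2* and *Anxa3*, and among neighbours the libraries overlapped between *Anxa1* and *Anxa11* alone. In CD11b+ B cells it ran *Anxa6*, *Anxa5*, *Anxa1*, *Anxa7*, *Anxa2*, *Anxa4*, *Anxa11* and *Anxa3*, with overlap between *Anxa5* and *Anxa1*, *Anxa1* and *Anxa7*, and *Anxa4* and *Anxa11*. In PMs it ran *Anxa1*, *Anxa3*, *Anxa2*, *Anxa6*, *Anxa5*, *Anxa4*, *Anxa7* and *Anxa11*, where *Anxa1* was separate from *Anxa3* and *Anxa7* from *Anxa11*, and all other neighbours overlapped. *Anxa3* thus went from last place in both B cell groups to the place after *Anxa1* in PMs.

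CD11b+ and CD11b- B cells were compared to ask how far the CD11b+ cells departed from other marrow B cells after LPS. On the log2(FPKM + 1) scale, which understates the change of low genes, the difference was 2.06 (SE 0.23) for *Anxa2*, 1.42 (SE 0.49) for *Anxa1* and 1.23 (SE 0.26) for *Anxa3*. The differences of the other members were smaller, at 0.28 for *Anxa4*, 0.20 for *Anxa5*, 0.05 for *Anxa7*, and -0.17 for both *Anxa6* and *Anxa11*. The members were chosen on these values, so nothing is read from the calls that follow. All 8 members passed the filter on low values. Fitted over all genes, limma called 1 of them higher in CD11b+ B cells, *Anxa2*, and 0 lower. Of the 21778 genes tested, 0.0689% were called higher and 0.0% lower. At an unadjusted p under 0.05, limma marked 3 members higher and 0 lower, beside 4.65% and 3.04% of all genes. On whole reads, edgeR called *Anxa2* and *Anxa3* higher (0.269% of all genes higher) and DESeq2 called *Anxa1*, *Anxa2* and *Anxa3* higher (1.45%), with 0 members lower by either (0.0% and 0.282% of all genes). The libraries of the B cell groups did not overlap for 2 members, *Anxa2* and *Anxa3*, both higher in CD11b+ B cells, beside 8.63% of all genes in that direction. The median difference of the members was 0.24 and that of all genes tested 0.03. The limma call of *Anxa2* was lost in 5 of the 6 fits that left out a library, all but that without CD11b+ replicate 3, although its difference stayed between 1.91 and 2.15. It was also lost without a filter, with quantile normalization and with a replicate block by title number. Nothing in the labels states that libraries came from separate mice, so all p-values measure the spread between these libraries, which may be technical.

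Among the CD11b+ libraries, replicate 3 was lowest in *Anxa1*, *Anxa2* and *Anxa3* and in 10 of 11 neutrophil markers, 6 of 10 macrophage markers, 3 of 6 monocyte markers and 5 of 5 erythroid markers. *Anxa1* ran from replicate 2 (34.5 FPKM) through replicate 1 (22.9) to replicate 3 (7.08), the same order as the neutrophil marker sum, at 1546, 643 and 215. *Anxa2* and *Anxa3* ran from replicate 1 through 2 to 3, the order of the macrophage marker sum at 315, 293 and 115 but not of the neutrophil sum. *Lyz2* carried that macrophage sum, which without it was 54.2, 52.7 and 49.1, and *Chil3* carried the monocyte sum, which without it was 48.5, 42.7 and 64.3 and thus highest in replicate 3. The plasma cell sum was highest in replicate 3 as well, at 288, 252 and 641. These matches were picked after the values were seen and rest on 3 libraries. The part of these cells or transcripts in the annexin levels was not tested. Without CD11b+ replicate 3 the *Anxa1* difference between the B cell groups was 2.03, and without replicate 2 it was 0.96. The 10 macrophage markers reached 0.181 to 3.04% of their PM means in CD11b+ B cells, with *Csf1r* at 1.42% and *Adgre1*, which encodes F4/80, at 1.08%. *Anxa3*, at 1.98%, lay within that range, while *Anxa2* at 11.2% and *Anxa1* at 16.9% lay above it. The range is that of the macrophage markers alone. Among the monocyte and neutrophil markers, *Ccr2* was at 1.67% of its PM mean and *Ngp* at 46700%.

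**Figure D3:**
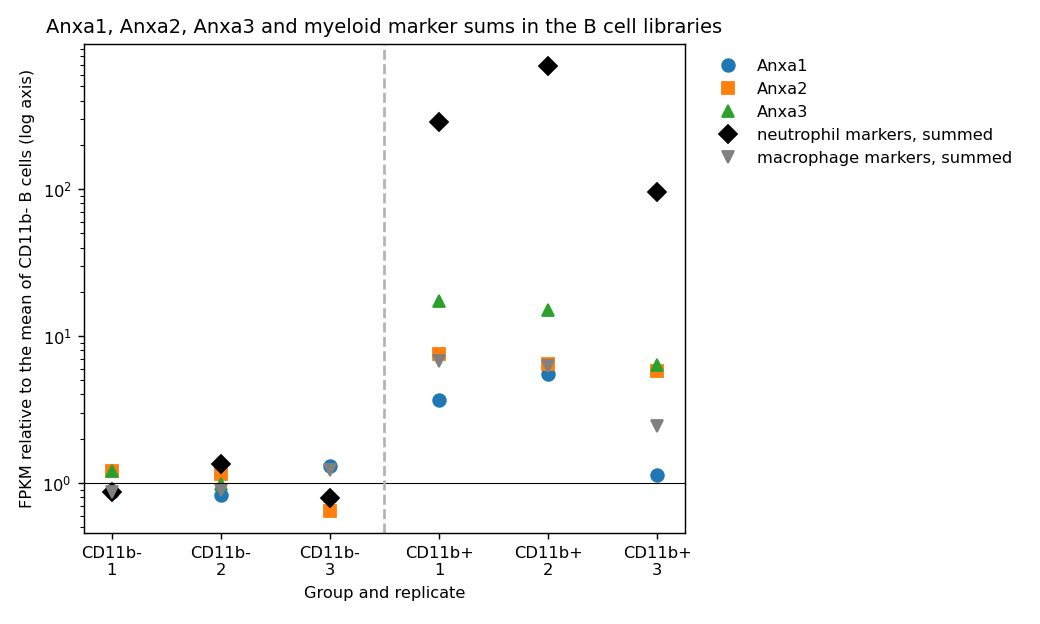
FPKM of *Anxa1*, *Anxa2* and *Anxa3* and summed FPKM of neutrophil and macrophage markers in the 6 B cell libraries, each divided by its mean in CD11b- B cells (log axis). All are lowest among the CD11b+ libraries in replicate 3, where the neutrophil sum is 215 FPKM and *Anxa1* is 7.08 FPKM.

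The comparisons with PMs share the PM libraries, so they are given side by side and not as separate evidence. *Anxa3* differed by -5.06 (SE 0.26) on the log2 scale in CD11b+ B cells and -6.30 (SE 0.18) in CD11b- B cells. *Anxa2* differed by -2.96 (SE 0.28) and -5.02 (SE 0.30), *Anxa1* by -2.74 (SE 0.49) and -4.16 (SE 0.22), and *Anxa4* by -1.82 (SE 0.26) and -2.10 (SE 0.24). These 4 genes were the members that limma called lower in both comparisons, again a count from which nothing is read, beside 8.78% of 22102 genes called lower for CD11b+ B cells and 11% of 20985 for CD11b- B cells. *Anxa6* alone was called higher, and only for CD11b- B cells, at 0.71 (SE 0.17) against 0.55 (SE 0.24) for CD11b+ B cells, beside 25.8% and 21.5% of genes called higher. For CD11b+ B cells limma thus called 0 members higher, as did limma at an unadjusted p under 0.05 (30.0% of genes), edgeR (18.7%) and DESeq2 (16.0%). The median difference of the members was -1.11 for CD11b+ and -1.27 for CD11b- B cells, and that of all genes tested 0.25 and 0.24.

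Median-ratio scaling moved small and large differences of the annexins from PMs in the same direction. Of all genes, limma found 4760 higher and 1940 lower for CD11b+ B cells than for PMs, and 5404 and 2306 for CD11b- B cells. With median-ratio scaling in the same test the calls were more even, at 2915 and 2556 for CD11b+ and 3397 and 3083 for CD11b- B cells. With edgeR, which also differs in its filter, its input of reads and its test, they were 2850 (18.7%) and 2758 (18.1%), and 3200 (21.1%) and 3163 (20.9%). With median-ratio scaling the *Anxa6* difference shrank from 0.55 to 0.05 for CD11b+ and from 0.71 to 0.18 for CD11b- B cells, and its call was lost. The call was lost as well without CD11b- replicate 1 or 2. With quantile normalization the *Anxa6* difference moved less, to 0.46 for CD11b+ and 0.7 for CD11b- B cells. Without CD11b+ replicate 3, *Anxa6* was called higher than in PMs in CD11b+ B cells as well. The median of all genes moved from 0.25 to 0.121 and from 0.24 to 0.085 with median-ratio scaling. *Anxa7* moved from -0.40 to -0.88 and from -0.45 to -0.96 and was then called lower in both, and for CD11b- B cells also without PM replicate 1, while *Anxa11* moved from 0.40 in CD11b+ B cells to -0.06 with quantile normalization. Under median-ratio scaling the CD11b+ differences of *Anxa1*, *Anxa2*, *Anxa3* and *Anxa4* were -3.22, -3.43, -5.44 and -2.26. *Anxa5* differed by -0.14 (SE 0.41) and -0.34 (SE 0.41), and turned to 0.26 and 0.07 without PM replicate 3.

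**Figure D4:**
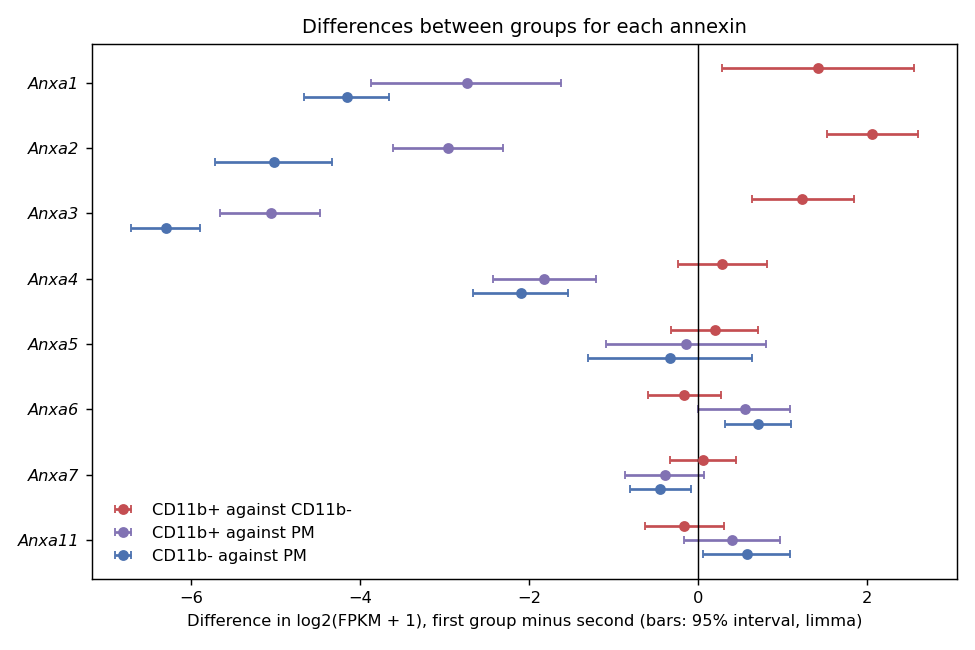
Difference in log2(FPKM + 1) between groups for each annexin, first group minus second, with 95% intervals from limma. The points of *Anxa1*, *Anxa2* and *Anxa3* lie at 1.42, 2.06 and 1.23 for CD11b+ against CD11b- B cells and at -2.74 or below for both comparisons with PMs, whereas those of *Anxa5* lie between -0.34 and 0.20.

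Of the 4 annexins outside the members, *Anxa10* and *Anxa13* had at most 2 reads in any library. *Anxa8* had 0 reads in the 3 CD11b- libraries, 63, 13 and 1 reads in the CD11b+ libraries and 1 read in PMs. Against a floor of 3 reads over the CD11b- group its level was at least 28.4-fold higher in CD11b+ B cells, and at least 7.62-fold without CD11b+ replicate 1, which held most of the reads, or 45.8-fold without replicate 3. Leaving out a CD11b- library put the bound between 18.5 and 19.3. *A630023A22Rik* lies over exons of *Anxa8* on the other strand, so these bounds may include reads of that gene. *Anxa8* did not pass by limma (adjusted p = 0.685), was too low for the edgeR filter and was called higher by DESeq2 (adjusted p = 0.0216). *Anxa9*, whose exons overlap *Mindy1*, was at 0.853, 0.484 and 0.662 FPKM in the CD11b- libraries, 2.41, 2.01 and 2.16 in the CD11b+ libraries and 0.482, 2.91 and 1.84 in the PM libraries. Its B cell groups did not overlap, and its difference of 0.94 (SE 0.23) did not pass by limma (adjusted p = 0.35) or edgeR (adjusted p = 0.291) but was called by DESeq2 (adjusted p = 0.01).

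Partners of the annexins were followed in a list of 16 genes, of which 14 passed the filter. Between the B cell groups limma called 1 of the 14 higher, *S100a6*, a calcium-binding partner of *Anxa2* and *Anxa11*, and 0 lower, beside 0.0689% and 0.0% of all genes tested. At an unadjusted p under 0.05, limma marked 4 higher (4.65% of all genes) and 0 lower (3.04%). By edgeR 2 were higher, *S100a6* and *Ahnak* (0.269% of all genes), by DESeq2 3 were higher, *S100a6*, *Ahnak* and *Fpr1* (1.45%), and 0 were lower by either (0.0% and 0.282%). *S100a6* had 1.86, 1.68 and 3.97 FPKM in the CD11b- libraries, 14.7, 12.9 and 16.8 in the CD11b+ libraries and 164, 224 and 100 in the PM libraries. It was thus higher in every CD11b+ library, by a log2 difference of 2.22 (SE 0.27; limma adjusted p = 0.0497), a call that stayed in 1 of the 6 fits that left out a library, the one without CD11b- replicate 3. *S100a10*, the main partner of *Anxa2*, was abundant in all groups, at 113, 122 and 128 FPKM in the CD11b- libraries, 127, 143 and 190 in the CD11b+ libraries and 307, 458 and 309 in the PM libraries. The B cell groups overlapped and differed by 0.32 (95% interval -0.07 to 0.72, limma adjusted p = 0.686), so no difference was called for this partner of *Anxa2*. *Ahnak*, a giant scaffold held at the membrane by Anxa2 and S100a10, was at 1.27, 0.743 and 0.989 in CD11b- B cells and 2.79, 2.7 and 3.59 in CD11b+ B cells, without overlap. Its difference of 1.01 (SE 0.24) did not pass by limma (adjusted p = 0.35) but was called by edgeR (adjusted p = 0.0499) and by DESeq2 (adjusted p = 8.55e-07).

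The formyl peptide receptors, which bind Anxa1, followed the uneven pattern of *Anxa1* in the CD11b+ libraries. *Fpr1* was at 2.06, 3.32 and 0.0214 FPKM in CD11b+ B cells and 29.4, 20.7 and 26.7 in PMs, with 2 reads in all CD11b- libraries together, and *Fpr2* was at 2.29, 2.48 and 0.241 in CD11b+ B cells and 8.35, 11 and 2.75 in PMs, against 0.254, 0 and 0 in CD11b- B cells. For both genes CD11b+ replicate 3 lay within the CD11b- range, so the B cell groups overlapped. Replicate 3 was the lowest of the CD11b+ libraries for both, as for *Anxa1* and for the neutrophil markers, cells in which these receptors are abundant, and the part of such cells was not tested. By limma neither difference between the B cell groups passed (*Fpr1* 1.23, SE 0.47, adjusted p = 0.636, and *Fpr2* 1.17, SE 0.39, adjusted p = 0.557). DESeq2 called *Fpr1* higher (adjusted p = 0.00218) and not *Fpr2* (adjusted p = 0.0714), and *Fpr3* had 0 reads in all 9 libraries.

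Against PMs, limma called 7 of 14 tested partners lower in CD11b+ B cells and 8 of 14 in CD11b- B cells, beside 8.78% and 11% of all genes. The 7 were *S100a10* (-1.21, limma adjusted p = 0.0086), *S100a6* (-3.30, limma adjusted p = 0.000111), *S100a4*, *Ahnak* (-4.14, limma adjusted p = 5.33e-06), *Fpr1* (-3.47, limma adjusted p = 0.00149), the membrane repair gene *Myof*, and *Pla2g4a*, the arachidonate-releasing phospholipase that annexins can inhibit. *Fpr2* was the eighth for CD11b- B cells. *Sri*, which encodes the calcium-binding protein sorcin, a partner of Anxa7, was called higher in CD11b- B cells alone (0.89, SE 0.25, limma adjusted p = 0.0273), at 68.0, 67.7 and 64.6 FPKM against 23.6, 39.5 and 47.7 in PMs, and this call was lost with median-ratio scaling, where the difference was 0.37, and without any 1 of the CD11b- libraries. *Pdcd6*, a partner of Anxa11, was at 25.6 to 41.8 FPKM in the B cell libraries and 24.6 to 33.6 in PMs and was not called in any comparison. The median difference over the tested partners was 0.25 between the B cell groups, -1.42 for CD11b+ B cells against PMs and -1.66 for CD11b- B cells against PMs.

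Genes that expose phosphatidylserine, the lipid annexins bind, or that recognise it on dying cells were followed in a second list of 16. Between the B cell groups limma called 0 of the 14 tested higher and 0 lower (0.0689% and 0.0% of all genes), with 1 higher and 2 lower at an unadjusted p under 0.05, beside 4.65% and 3.04% of all genes. edgeR called 1 higher, *Axl*, a receptor that binds phosphatidylserine through Gas6 and Pros1 (0.269% of all genes), DESeq2 called 2 higher, *Axl* and *Stab1* (1.45%), and both called 0 lower (0.0% and 0.282%). *Axl* was at 0.0298, 0.00569 and 0.0186 FPKM in the CD11b- libraries, on 1 to 5 reads a library, 0.656, 1.40 and 0.969 in the CD11b+ libraries and 24.8, 18.1 and 16.7 in the PM libraries (limma adjusted p = 0.202 between the B cell groups). Every CD11b+ library was above every CD11b- library, at a level far under that of PMs. *Ano6*, a scramblase that exposes phosphatidylserine, was at 9.43, 9 and 13.2 in CD11b- B cells and 6.64, 7.92 and 5.91 in CD11b+ B cells, the opposite direction without overlap, as for 6.32% of all genes, and did not pass (difference -0.55, SE 0.20, limma adjusted p = 0.604).

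Against PMs, 9 of 15 tested genes of this list were called lower by limma in CD11b+ B cells and 7 of 15 in CD11b- B cells, beside the same 8.78% and 11% of all genes. *Timd4*, the phosphatidylserine receptor of resident PMs, was at 346 to 431 FPKM in PMs and at or below 1.1 in every B cell library, and *Mertk* and *Pros1* were at 26.4 to 38.4 and 70.6 to 96.8 in PMs and at or below 0.369 and 0.479 in B cells. *Plscr1*, an interferon-induced scramblase family member, was the 1 gene of 15 called higher in CD11b+ B cells, beside 21.5% of all genes, at 14.3, 12.0 and 5.81 FPKM against 0.361, 2.34 and 4.39 in PMs (difference 1.93, SE 0.53, limma adjusted p = 0.0278), and this call was lost with median-ratio scaling (difference 1.51, limma adjusted p = 0.0954) and without CD11b+ replicate 1 or 2 or PM replicate 2. The median difference of the list was 0.19 between the B cell groups, and -0.96 and -1.0 for CD11b+ and CD11b- B cells against PMs.

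**Figure D5:**
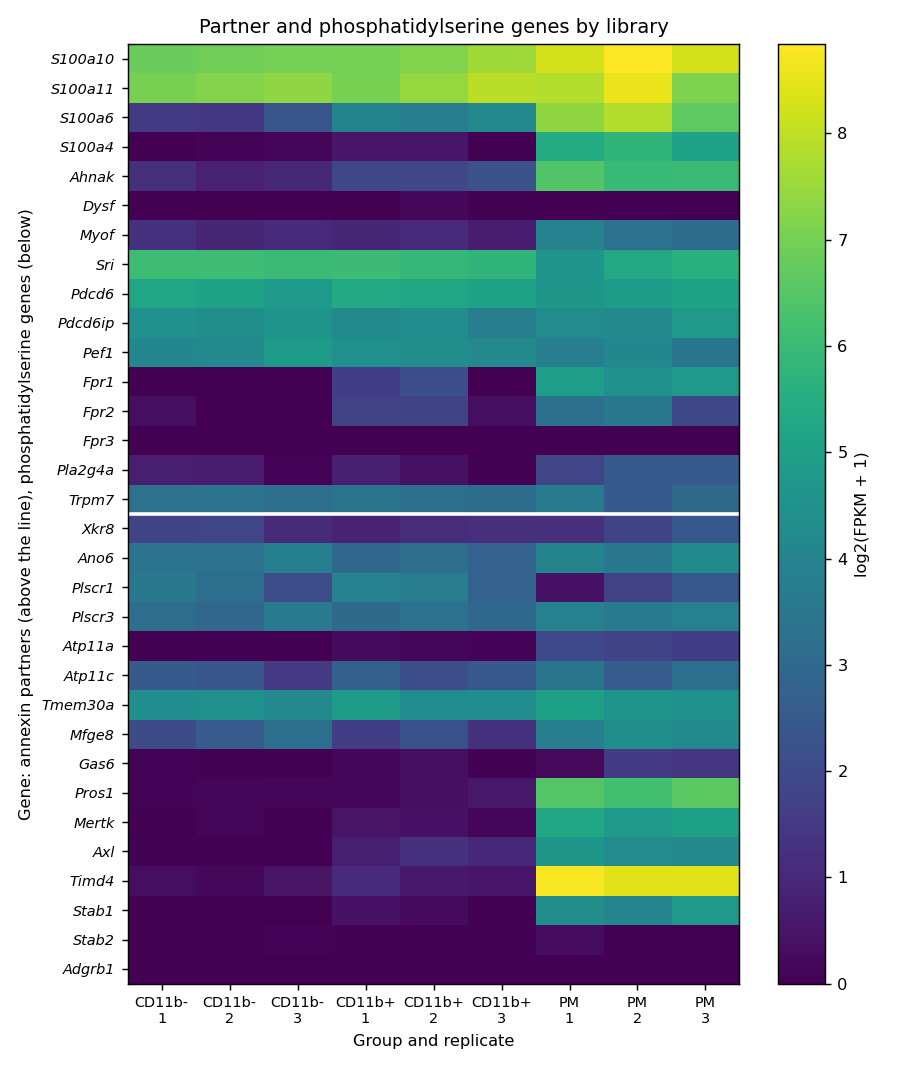
Level, as log2(FPKM + 1) by colour, of the 16 annexin partners above the white line and the 16 phosphatidylserine genes below it in each of the 9 libraries. *S100a10* and *S100a11* are bright in every column, *S100a6* and *Ahnak* step up from CD11b- to CD11b+ to PM libraries, and *Pros1*, *Mertk*, *Axl*, *Timd4* and *Stab1* are bright in PMs alone.

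Genes with the most similar pattern were found by Pearson's r of log2(FPKM + 1) with each member, among 12493 genes and over the 9 libraries. These libraries form 3 groups, so r mostly reflects the group means, and it is given as a description. *Anxa1* was closest to *Hp*, which encodes haptoglobin (0.99), and to *Fpr1* (0.989). *Anxa2* was closest to *Fcer1g*, the Fc receptor gamma chain, and *Cd300c2* (0.993 each), and *Anxa3* to *Csf1r*, the receptor of macrophage colony-stimulating factor, and *Fcgr3* (0.999 each). *Anxa3* and *Csf1r* had mean FPKM of 88.5 and 190 in the PM libraries, 1.76 and 2.7 in the CD11b+ libraries and 0.137 and 0.176 in the CD11b- libraries. *Anxa4* was close to *Socs3* (0.989). By mean FPKM, *Anxa6* and *Anxa11* were higher in B cells than in PMs, differences that shrank with median-ratio scaling. *Anxa6* was closest to *Dhx37* (0.989) and *Anxa11* to *Map1s* and *1700056E22Rik* (0.984 each). *Anxa7* was closest to *Nlrx1* (0.954) and *Gnpda1* (0.951), and *Anxa5* to *Mfsd1* (0.938) and *Mesd* (0.92), the lowest r among the closest genes.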

How the data were processed

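RNA-seq of 9 libraries in 3 groups was analysed, grouped by GEO's labels. The libraries were prepared with a SMART-seq HT kit, without molecular identifiers. The authors trimmed reads with Trim Galore 0.4.4, Trimmomatic 0.36 and cutadapt 1.16, mapped them with STAR 2.7.2b and counted them on genes with featureCounts 1.6.1; the submitters' processing notes also name DESeq2 1.20.0, and both GRCm38 and GRCm39. The deposited FPKM values were made by the authors from those counts, divided by exon length and scaled to the counted reads of a library. A second deposited table of 11063 genes, chosen by an unnamed test, holds a normalized signal, each library's counts over its size factor; its cluster column was not used. Whole reads were recovered from the steps between low FPKM values (100% of values within 0.05 of a whole number) and equalled the reads from the second table.

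The table has no counts, so log2(FPKM + 1) of genes averaging 0.05 FPKM or more over the libraries compared was fitted with limma 3.58.1 (R 4.3.3), 1 fit per comparison over all genes, with Benjamini-Hochberg adjusted p under 0.05 as a call. With 3 libraries a group, an exact permutation test cannot go below p = 0.1. Alternatives were a pseudocount of 0.1, no filter or a mean of 1, all 9 libraries in 1 fit, a replicate block, median-ratio scaling, quantile normalization, each library left out, and edgeR 4.0.16 and DESeq2 1.42.0 on the recovered reads. Deviations of B cell libraries with the same title number correlated with r = 0.284, -0.019 and 0.206. The pair at -0.019 has different sample code numbers, and the 2 pairs that share a code number are the other 2. Since the labels give no shared source and fewer than 3 pairs share a code, neither numbering was taken to pair the libraries. Scripts were tested on simulated data. No libraries held identical values (0 pairs).

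Floors are 3 reads over a group and cover counting error only. Named genes were the 8 members, the 4 other annexins, partner and phosphatidylserine genes averaging 5 FPKM or more in a group, and the 2 genes most correlated with each member among those with a mean of at least 1, of which 2 are not reported here. *Fpr3*, *Pla2g4a* and single marker genes fall outside this rule and were named after their values were seen. The members and lists were chosen with earlier results of these data known. Gene positions are from the GRCm38 annotation, and sequences from RefSeq.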

Additional observations from a re-analysis of the deposited data

How the results depend on the processing

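Between CD11b+ and CD11b- B cells limma called 1 member and 1 partner higher. Both counts were 0 without a filter or with quantile normalization, 2 by edgeR and 3 by DESeq2, and each ran from 0 to 1 when a library was left out. The phosphatidylserine genes called higher were 0 by limma, 1 by edgeR and 2 by DESeq2. With the replicate block by title number, 0 members were called higher, although the numbers were not taken to pair the libraries, and 1 with the block by sample code number. Over all genes, 15 were higher and 0 lower by limma, 34 and 3 with a pseudocount of 0.1, 31 and 5 with all 9 libraries in 1 fit, 42 and 0 by edgeR, 328 and 64 by DESeq2, and 98 and 29 with a block by sample code number. The higher genes were 2 without a filter, 31 with a minimum mean FPKM of 1, 9 with quantile normalization, and 3 to 40 when a library was left out. With so few calls, 1 gene more or less moves a list's count, and the cause of each shift was not tested.

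For CD11b+ B cells against PMs, 1 phosphatidylserine gene was called higher, and 0 without a filter, with median-ratio or quantile normalization, or by edgeR or DESeq2. The partners higher were 0, and 1 with all 9 libraries in 1 fit. When a library was left out, members, partners and phosphatidylserine genes called higher each ran from 0 to 1, and those lower were 4, 7 to 8, and 7 to 10. For CD11b- B cells, the members higher were 1, and 0 with median-ratio scaling, edgeR or DESeq2. The partners higher were 1, and 0 without a filter, with median-ratio or quantile normalization, or by edgeR or DESeq2. The phosphatidylserine genes lower were 7, then 11 with median-ratio scaling and 12 with quantile normalization, edgeR or DESeq2, while over all genes those lower went from 2306 to 3083, 3099, 3163 and 4014. When a library was left out, members and partners higher each ran from 0 to 1, members lower from 4 to 5, partners lower from 8 to 9 and phosphatidylserine genes lower from 7 to 8. No called value changed sign. *Anxa3* in CD11b- B cells rested on 50 reads in all, so its ratios are less sure than those of *Anxa1* or *Anxa6*.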
